A study of Homo sapiens with 30 samples.

Results

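Banhasasim-tang extract at 100 µg/mL was set against Bojungikgi-tang and Sayeok-tang extracts at the same dose in HT29, a human cell line from a colorectal adenocarcinoma. The libraries were chosen by their labels alone, and they are 8 of the 30 libraries of the series. Banhasasim 100 µg/mL had 2 libraries (replicates 2 and 3). Bojungikgi 100 µg/mL had 3 libraries and Sayeok 100 µg/mL had 3, and these 6 were pooled as the other side. All 8 were cultures treated for 24 h with a 70% ethanol extract of a Korean herbal formula used for digestive complaints, and no vehicle library enters the difference. The comparison asks how Banhasasim differed from both other extracts at the middle dose, and anything all 3 extracts share cancels. Vehicle libraries (0.1% DMSO, n = 3) and 1 Yijung-tang library at 100 µg/mL are given only as side values.

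Total expected counts in the 8 libraries ran between 42.109 and 55.963 in units of 1e6, and a floor of 3 counts corresponded to 0.0536 to 0.0712 counts per 1e6 counts (CPM), which covers counting error only. The 12 markers of colon epithelium, KRT8, KRT18 and EPCAM among them, summed to 11100 to 11500 CPM with Banhasasim and to 10800 to 12400 CPM with the other extracts, and none was called. The 10 markers of fibroblasts and endothelium summed to 4.14 to 4.54 CPM with Banhasasim and to 3.42 to 4.49 CPM with the others, with COL1A2 and KDR at 0 in all 8 libraries. The 10 leukocyte markers summed to 1780 to 1920 CPM with Banhasasim and to 1660 to 1950 CPM with the others. Nearly all of that was LYZ, lysozyme, which intestinal epithelial cells can also make, at 1816 ± 113 CPM with Banhasasim and 1808 ± 135 CPM with the others (SD, n = 2 and 6), while CD3D and MS4A1 were at 0. The sample titles put all 30 libraries in a batch named BatchE, and what that name or the sample codes stand for is not given. By their sample codes, Banhasasim and Yijung belong to series 14, and Bojungikgi and Sayeok to series 15. The extract and the code series therefore cannot be told apart in the pooled comparison, and the value within series 14, against the lone Yijung library, is given beside it. The labels do not tell whether replicates came from separate cultures. The p-values therefore reflect the spread between libraries within groups, pooled over all 30 in the fit, which may be technical.

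Some of the genes with the largest differences belong to well-known circuits, although most called genes were on none of the lists. The aryl hydrocarbon receptor (AhR, encoded by AHR) is a cytosolic receptor for flat aromatic molecules, including many from plants and from bacteria of the gut. With a ligand bound it enters the nucleus, pairs with ARNT and switches on genes such as CYP1A1 and CYP1B1, whose enzymes oxidise such ligands, and TIPARP and AHRR, which dampen the receptor. NRF2 and ATF4 are transcription factors of the responses to electrophiles and to amino acid shortage, and MondoA and ChREBP raise TXNIP and ARRDC4 when glucose metabolites are plentiful.

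Banhasasim differed from the other 2 extracts in few genes. Of 18783 genes tested, 44 passed edgeR's quasi-likelihood test at 0.05 after Benjamini-Hochberg adjustment ("called" from here on), which is 0.234% of them. In Banhasasim libraries 37 genes were higher (0.197%) and 7 were lower (0.0373%), 16 differed by more than 1.5-fold and 7 by more than 2-fold. The median log2 difference of all genes tested was 0.0008. In each of the 44 genes, both Banhasasim libraries lay outside the range of the other 6, as they did in 7.38% of all genes tested (above it in 3.87%, below it in 3.52%). The count rests on both Banhasasim libraries: 23 genes were called without replicate 2 and 16 without replicate 3, and these were among the 44. Without a filter on low counts, 141 genes were called, 39 of them among the 44 and 0 of them on genes that the filter had removed.

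**Figure D1:**
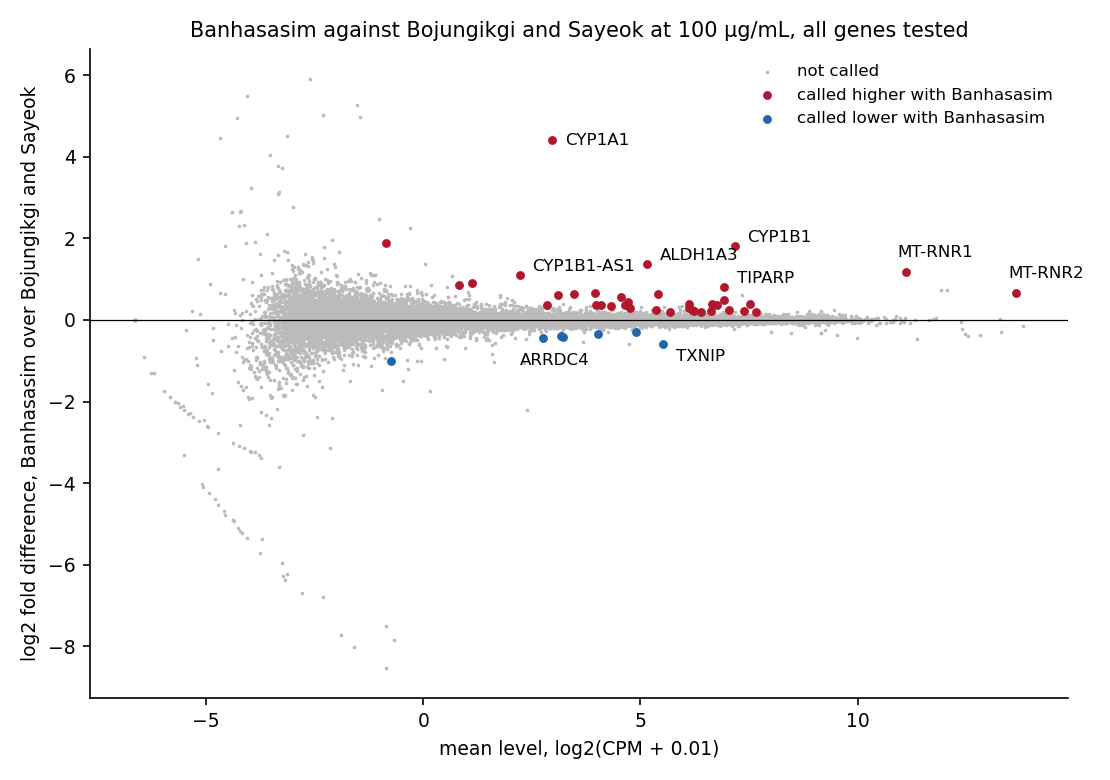
Each point is 1 of 18783 genes. The x axis is the mean of the 2 sides' levels as log2(CPM + 0.01) and the y axis is the log2 fold difference of Banhasasim over Bojungikgi and Sayeok at 100 µg/mL. Red points are the 37 genes called higher, blue points the 7 called lower and grey points all other genes. CYP1A1 stands highest among the called genes, at 4.40.

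The AhR enzymes showed the strongest calls. CYP1A1, the xenobiotic-oxidising cytochrome P450 that serves as the standard readout of the receptor, lies on chromosome 15 at 74719542 to 74725610 (GRCh38, minus strand). It stood at 15.5 and 14.5 CPM in the Banhasasim libraries. It stood at 0.938, 0.839 and 0.606 CPM in the Bojungikgi libraries and at 0.587, 0.607 and 0.711 CPM in the Sayeok libraries. All 6 of those libraries were below 1 CPM, and the lone Yijung library was at 0.657 CPM. The vehicle mean was 0.441 CPM, below each of the 6, and a difference of these extracts from vehicle was not tested. CYP1A1 rose with Banhasasim by 4.40 ± 0.13 on the log2 scale (SE; adjusted p = 5.75e-18), a 21.1-fold difference. In RNA from a whole culture, a change in every cell and a change in a share of the cells cannot be told apart.

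CYP1B1, a related P450 with a higher level in these cells, lies on chromosome 2 at 38066973 to 38109902. It was at 224 and 225 CPM with Banhasasim, against 67.3, 66.2 and 68.7 CPM with Bojungikgi and 59.4, 62.0 and 59.9 CPM with Sayeok. The Banhasasim libraries were nearly equal and far above the 6 others, by 1.81 ± 0.04 (adjusted p = 3.49e-21). ALDH1A3, the aldehyde dehydrogenase that makes retinoic acid, lies on chromosome 15 at 100877714 to 100916626. Its levels were 51.4 and 51.0 CPM with Banhasasim, against 20.7, 22.5 and 19.9 CPM with Bojungikgi and 17.3, 19.8 and 19.1 CPM with Sayeok. It rose by 1.37 ± 0.05 (adjusted p = 5.94e-16). TIPARP, the ADP-ribosyltransferase that represses AhR, was at 151 and 159.5 CPM with Banhasasim, against 93.2, 88.8 and 88.9 CPM with Bojungikgi and 86.3, 86.8 and 90.3 CPM with Sayeok. It rose by 0.80 ± 0.05 (adjusted p = 4.65e-11).

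The start regions of these genes are shown because AhR with ARNT recognises the core GCGTG. RefSeq promoters (250 bases before the start and 50 after it, GRCh38.p14) were found for CYP1A1 at chr15:74725479-74725778 on the minus strand, TIPARP at chr3:156674340-156674639 on the plus strand and ALDH1A3 at chr15:100879581-100879880 on the plus strand, and not for CYP1B1. They are written 5′ to 3′ on the gene's strand, with each GCGTG, or CACGC for the other strand, in capitals.
CYP1A1: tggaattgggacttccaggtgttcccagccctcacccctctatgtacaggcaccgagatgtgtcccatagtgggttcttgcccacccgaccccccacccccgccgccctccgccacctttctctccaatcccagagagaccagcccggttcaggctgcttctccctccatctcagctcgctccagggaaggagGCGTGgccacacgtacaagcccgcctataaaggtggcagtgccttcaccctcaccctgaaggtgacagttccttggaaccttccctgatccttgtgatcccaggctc
TIPARP: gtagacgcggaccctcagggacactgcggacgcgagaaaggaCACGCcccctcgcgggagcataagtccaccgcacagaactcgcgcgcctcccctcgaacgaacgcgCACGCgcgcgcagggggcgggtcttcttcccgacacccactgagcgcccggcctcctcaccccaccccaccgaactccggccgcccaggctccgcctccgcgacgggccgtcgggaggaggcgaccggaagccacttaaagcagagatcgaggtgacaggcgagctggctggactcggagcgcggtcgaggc
ALDH1A3: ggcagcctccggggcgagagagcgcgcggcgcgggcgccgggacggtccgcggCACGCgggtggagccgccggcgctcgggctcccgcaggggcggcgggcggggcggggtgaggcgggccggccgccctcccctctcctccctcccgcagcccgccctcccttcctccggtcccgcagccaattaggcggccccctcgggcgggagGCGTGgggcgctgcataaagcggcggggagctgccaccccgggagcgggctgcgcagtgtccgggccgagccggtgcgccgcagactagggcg
The CYP1A1 window held 1 such core and the TIPARP and ALDH1A3 windows 2 each. Of 27305 RefSeq promoters of the same length, 36.3% held at least 1 GCGTG on either strand. Of the 37 genes called higher, 25 had a promoter in the table and 15 of those (60.0%) held the core. Of the 7 called lower, 4 had a promoter there and 3 held it (75.0%). A match of letters is a description and not a bound site.

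The gene lists were written with earlier results of these data known, so their called members are a description and not independent evidence. The list of AhR targets had 9 members tested, of which 5 rose and none fell, beside the 0.197% of all genes called higher. The 5th was ALDH3A1, an aldehyde dehydrogenase that acts on lipid peroxidation products. It was at 30.4 and 29.5 CPM with Banhasasim and between 20.8 and 24.1 CPM with the others, higher by 0.43 ± 0.07 (adjusted p = 0.00126). The other 4 members did not pass, although all had a positive difference. They were AHRR (0.17 ± 0.10, adjusted p = 1), the receptor's repressor; NQO1 (0.21 ± 0.06, adjusted p = 0.348), the quinone reductase; UGT1A6 (0.15 ± 0.05, adjusted p = 0.914), a glucuronosyltransferase that shares exons with its UGT1A neighbours; and LYPD3 (0.45 ± 0.28, adjusted p = 1). The median log2 difference of the 9 was 0.455. CYP1A2, the 10th member, was below the filter, with rounded counts of 1 and 4 in the Banhasasim libraries and 0 in each of the 6 others. AHR was at 132 ± 12.3 CPM with Banhasasim and 135 ± 4.88 CPM with the others (-0.03 ± 0.07, adjusted p = 1). ARNT was at 33.0 ± 1.67 and 33.0 ± 0.721 CPM in the same order (SD, n = 2 and 6; adjusted p = 1).

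Antisense genes at these loci were also called. CYP1B1-AS1 overlaps CYP1B1 on the opposite strand of chromosome 2 (38073447 to 38231651) and was at 6.37 ± 0.482 CPM with Banhasasim and 2.97 ± 0.148 CPM with the others (SD, n = 2 and 6). It was higher by 1.10 ± 0.11 (adjusted p = 4.75e-07). ALDH1A3-AS1, which overlaps ALDH1A3 (chromosome 15, 100892859 to 100919283), was higher by 0.36 ± 0.07 (adjusted p = 0.0142). How the counting used strand is not given in the sources used here, and reads of these antisense genes may belong to their partners. ENSG00000279588, an unnamed gene on the same arm at 100782417 to 100786189, was at 0.724 and 0.964 CPM with Banhasasim and between 0.147 and 0.328 CPM with the others. Its difference was 1.88 ± 0.25 (adjusted p = 9.92e-05), and, like ALDH1A3-AS1, it was picked out after its values were seen.

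**Figure D2:**
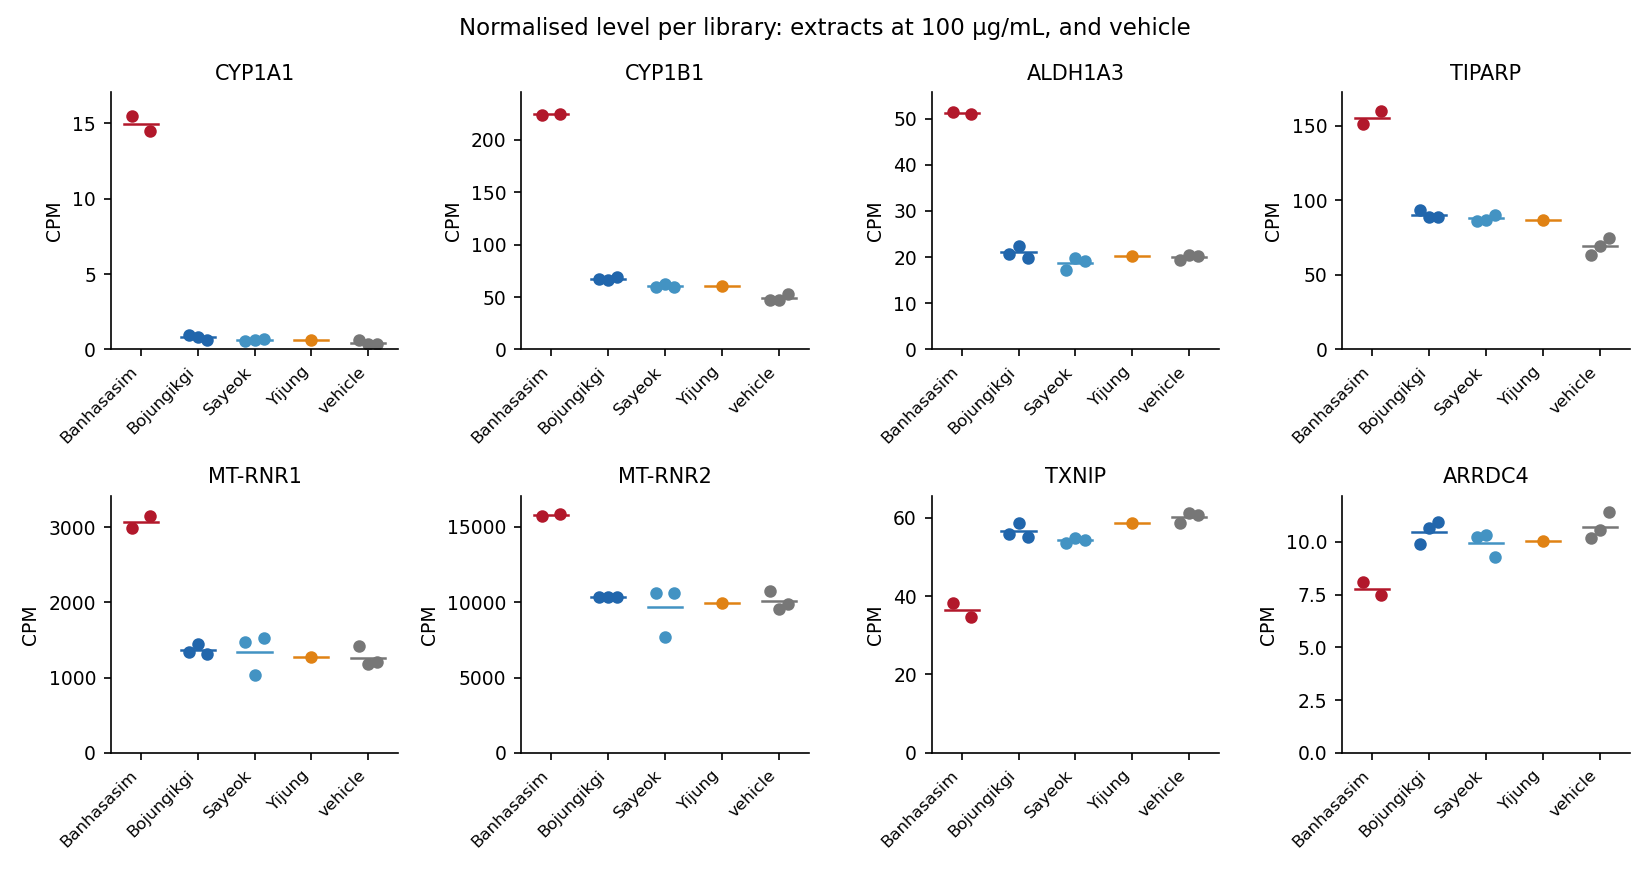
Points are single libraries and bars are group means, in TMM-normalised CPM from 0 up, for 8 genes. Groups run from Banhasasim (n = 2) through Bojungikgi (n = 3), Sayeok (n = 3) and Yijung (n = 1), each at 100 µg/mL, to vehicle (n = 3). CYP1A1, CYP1B1, ALDH1A3 and TIPARP show the Banhasasim pair above all other libraries, and TXNIP and ARRDC4 show it below them.

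Both ribosomal RNAs of the mitochondrion, which are encoded on its own chromosome and form its ribosome, rose. MT-RNR1, the small-subunit RNA (648 to 1601 on the mitochondrial chromosome), was at 2992 and 3150 CPM with Banhasasim. It was at 1335, 1443 and 1310 CPM with Bojungikgi and at 1474, 1029 and 1526 CPM with Sayeok. The difference was 1.18 ± 0.11 (adjusted p = 1.86e-06), and the adjusted p was 0.066 when only the 3 groups entered the fit. MT-RNR2, the large-subunit RNA (1671 to 3229), was at 15716 and 15868 CPM with Banhasasim, against 10346, 10370 and 10363 CPM with Bojungikgi and 10637, 7714 and 10625 CPM with Sayeok. Its difference was 0.66 ± 0.12 (adjusted p = 0.00941). That call was lost with only the 3 groups in the fit (adjusted p = 0.0551), without Banhasasim replicate 2 (0.183) and without replicate 3 (0.252).

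Together the 2 RNAs took 1.901% and 1.914% of all counts in the Banhasasim libraries and 0.914% to 1.229% in the 6 others. An exact two-sided permutation test over the 8 libraries gave p = 0.0714, the smallest that this form of the test can give with 28 arrangements. It could not fall under 0.05, and the 2 RNAs were already called higher in these same libraries, so it adds no support. The 13 mitochondrially encoded mRNAs had none called, and their median difference was -0.30. Their share of counts was 5.888% and 6.117% with Banhasasim and 5.147% to 7.762% with the others (exact permutation p = 0.5). MT-ND1 and MT-ND2, complex I subunits encoded just downstream of the ribosomal RNAs, went the other way from most of that list. MT-ND1 was at 4594 and 5153 CPM with Banhasasim and between 2014 and 3747 CPM with the others (0.74 ± 0.23, adjusted p = 0.619). MT-ND2 was at 4820 and 5736 CPM with Banhasasim and between 2206 and 3988 CPM with the others (0.73 ± 0.22, adjusted p = 0.577). The labels call the libraries mRNA libraries and the capture step is not described, so whether the rRNA level or its capture differed was not tested. Nuclear genes of oxidative phosphorylation showed a median difference of 0.01 over 23 members, none called.

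Among the 7 genes that fell, TXNIP had the smallest adjusted p. TXNIP encodes an arrestin-like protein that binds thioredoxin and limits glucose uptake, and lies on chromosome 1 at 145992435 to 145996600. It was at 38.2 and 34.8 CPM with Banhasasim. It was at 55.8, 58.6 and 55.1 CPM with Bojungikgi and at 53.4, 54.7 and 54.3 CPM with Sayeok, so the sides were well apart. The difference was -0.60 ± 0.05 (adjusted p = 1.14e-08). ARRDC4, its closest relative under the same glucose-sensing factors, was at 8.09 and 7.49 CPM with Banhasasim and between 9.29 and 10.9 CPM with the others (-0.39 ± 0.08, adjusted p = 0.0355). Its call was lost on leaving out any of 6 of the 8 libraries (largest adjusted p = 1). These were 2 of the 9 tested members of the glucose-sensing list, which had a median of -0.07, beside the 0.0373% of all genes called lower. The others on it, such as KLF10 (-0.06 ± 0.05) and FBP1 (-0.03 ± 0.06), did not pass.

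The start regions of this pair are shown because MondoA and ChREBP bind paired elements related to the E-box CACGTG. RefSeq places the TXNIP window at chr1:145996530-145996829 on the minus strand and the ARRDC4 window at chr15:97960453-97960752 on the plus strand (GRCh38.p14). Capitals mark in TXNIP the only pair of CACGNG elements 5 bases apart, and in ARRDC4 the only CACGTG.
TXNIP: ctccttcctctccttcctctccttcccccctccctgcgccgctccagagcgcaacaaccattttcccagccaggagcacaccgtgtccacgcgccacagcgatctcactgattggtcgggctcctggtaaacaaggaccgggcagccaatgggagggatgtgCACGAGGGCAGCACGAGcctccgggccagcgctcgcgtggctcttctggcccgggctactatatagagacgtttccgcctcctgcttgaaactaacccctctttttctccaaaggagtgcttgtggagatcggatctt
ARRDC4: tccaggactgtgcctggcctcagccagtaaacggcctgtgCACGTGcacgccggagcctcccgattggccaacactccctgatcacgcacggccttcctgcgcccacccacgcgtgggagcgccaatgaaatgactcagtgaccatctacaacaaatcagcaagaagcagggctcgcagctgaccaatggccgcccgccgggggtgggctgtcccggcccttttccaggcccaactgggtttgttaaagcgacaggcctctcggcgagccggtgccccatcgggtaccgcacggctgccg
On either strand, such a pair was in 0.0732% of the 27305 promoters and CACGTG in 7.43%. The pair was written with the TXNIP window in mind. TXNIP's window held no CACGTG, and ARRDC4's no such pair.

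The other 5 genes called lower were of mixed roles. FILIP1L, related to a filamin-interacting protein and known to restrain cell movement, was at 5.68 ± 0.199 CPM with Banhasasim and 7.79 ± 0.544 CPM with the others (SD, n = 2 and 6; -0.45 ± 0.09, adjusted p = 0.0137). RASSF10, a Ras-association family member often silenced in tumours, was at 7.95 ± 0.695 and 10.7 ± 0.742 CPM in the same order (-0.42 ± 0.08, adjusted p = 0.0116). LINC00261, a long noncoding RNA next to FOXA2, was at 14.3 ± 0.868 and 18.01 ± 0.686 CPM (-0.33 ± 0.06, adjusted p = 0.0142). As in each of the 44 called genes, the 2 and the 6 libraries did not overlap in any of the 5. Over all genes tested, both Banhasasim libraries were below the 6 others in 3.52%. The naming rule asked for no overlap in FILIP1L, RASSF10, LINC00261 and PKDCC, so its absence is no support for them. PKDCC, a secreted protein kinase, was at 26.7 ± 1.31 and 32.5 ± 1.47 CPM (-0.28 ± 0.06, adjusted p = 0.0333). C17orf97 was at 0.395 ± 0.0696 and 0.784 ± 0.0685 CPM, below 1 CPM in all 8 libraries, with the largest difference of the 7 (-1.001 ± 0.22, adjusted p = 0.0414). FILIP1L, RASSF10 and LINC00261 were not called without Banhasasim replicate 2 or without replicate 3 (largest adjusted p = 0.662). PKDCC lost its call on leaving out any of 7 of the 8 libraries (largest adjusted p = 1) and with only the 3 groups in the fit (0.051).

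Several genes outside the AhR list rose by less than TIPARP, between 0.56 and 0.65 on the log2 scale. PIM1, a serine/threonine kinase that supports survival, was at 18.4 and 19.1 CPM with Banhasasim and between 11.6 and 12.8 CPM with the others (0.65 ± 0.06, adjusted p = 1.5e-07). ADGRF1, an adhesion receptor, was at 50.2 and 52.3 CPM with Banhasasim and between 31.6 and 35.4 CPM with the others (0.63 ± 0.05, adjusted p = 1.74e-08). SLC22A3, an organic cation transporter, was at 12.8 and 14.1 CPM with Banhasasim and between 8.38 and 9.04 CPM with the others (0.63 ± 0.06, adjusted p = 8.97e-07). The naming rule asked for no overlap of the 2 and the 6 libraries, so its absence here is no support. Over all genes tested, both Banhasasim libraries were above the 6 others in 3.87%. In each of these 3 genes the 2 Banhasasim values lay close together, which the test that chose them favours, so that is no support either. BMF, a BH3-only member of the BCL2 family that promotes apoptosis, was at 10.2 and 10.4 CPM with Banhasasim and between 6.15 and 7.54 CPM with the others (0.62 ± 0.07, adjusted p = 8.15e-06). TMCC3, a membrane protein of the endoplasmic reticulum, was at 27.8 and 27.6 CPM with Banhasasim and between 17.5 and 19.8 CPM with the others (0.56 ± 0.06, adjusted p = 1.75e-06). All 5 kept their call and direction under each of the 15 alternatives run, as did CYP1A1, CYP1B1, ALDH1A3, TIPARP, CYP1B1-AS1 and TXNIP.

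The next genes called higher were picked out after their values were seen, and all but POU2F3 had smaller differences. EREG, the EGF-family ligand epiregulin, was at 141 ± 1.34 CPM with Banhasasim and 100.2 ± 4.93 CPM with the others (0.50 ± 0.05, adjusted p = 4.75e-07). VIPR1, the receptor for vasoactive intestinal peptide, was at 78.0 ± 1.35 and 59.8 ± 0.731 CPM in the same order (0.38 ± 0.04, adjusted p = 4.75e-07). PTGS2, the inducible cyclooxygenase, was at 22.4 ± 1.23 and 17.7 ± 1.06 CPM (0.34 ± 0.07, adjusted p = 0.0231). These are a secreted growth factor, a gut hormone receptor and an enzyme of prostaglandin synthesis. PPARG, a nuclear receptor of lipid metabolism and colon differentiation, was at 106 ± 0.455 and 91.8 ± 3.45 CPM (0.22 ± 0.04, adjusted p = 0.0298). ALAS1, the first enzyme of haem synthesis, was at 54.8 ± 0.101 and 47.7 ± 1.94 CPM (0.20 ± 0.04, adjusted p = 0.0472). POU2F3, the transcription factor that specifies tuft cells, was at 2.28 ± 0.177 and 1.26 ± 0.0823 CPM (0.86 ± 0.14, adjusted p = 0.00274).

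Of the 26 NRF2 targets tested, 3 rose and none fell, beside the 0.197% of all genes called higher. SLC7A11, the cystine importer that ATF4 also induces, was at 195 and 224 CPM with Banhasasim and between 149 and 167 CPM with the others (0.39 ± 0.07, adjusted p = 0.00333). AKR1B10, an aldo-keto reductase with close paralogs whose reads could mix, was at 121 and 122 CPM with Banhasasim and between 87.1 and 109 CPM with the others (0.36 ± 0.06, adjusted p = 0.00211). GCLM, the modifier subunit of glutamate-cysteine ligase, was higher by 0.23 ± 0.05 (adjusted p = 0.0291). The remaining 23 did not pass, TXNRD1, thioredoxin reductase, being nearest at 0.19 ± 0.04 (adjusted p = 0.0513). HMOX1, haem oxygenase, was at 10.9 ± 0.478 CPM with Banhasasim and 9.58 ± 0.710 CPM with the others (adjusted p = 0.652). The median difference over the 26 members was 0.12, with all 26 differences positive, whereas 9469 of all 18783 genes had a positive one. These 26 genes are not independent of each other.

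Of 24 ATF4 targets tested, 2 rose and none fell, beside the same 0.197%. ASNS, asparagine synthetase, was at 74.0 and 77.4 CPM with Banhasasim and between 58.7 and 64.5 CPM with the others (0.28 ± 0.04, adjusted p = 0.000344), and SLC7A11, already counted among the NRF2 targets, was the other. CHAC1, which degrades glutathione, was at 3.79 ± 0.322 CPM with Banhasasim and 2.97 ± 0.202 CPM with the others (0.35 ± 0.09, adjusted p = 0.239). TRIB3 (0.06 ± 0.06) and DDIT3 (-0.04 ± 0.12), further outputs of the factor, had adjusted p = 1. Over all 32 lists, 27 had no called member, among them those for PXR and CAR, p53, Wnt, NF-kB and interferon targets, the heat shock and unfolded protein responses, cholesterol synthesis, both cell cycle lists, goblet cells and tight junctions. With 0.234% of all genes called, lists of this size would mostly hold no called member, so nothing about those pathways is read from it. Cholesterol synthesis genes had a median of -0.05 with 23 of 25 members below 0, and cytosolic ribosomal protein genes a median of 0.05 with 27 of 28 above 0. Of the 44 called genes, 13 were on a list and 31 were on none.

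**Figure D3:**
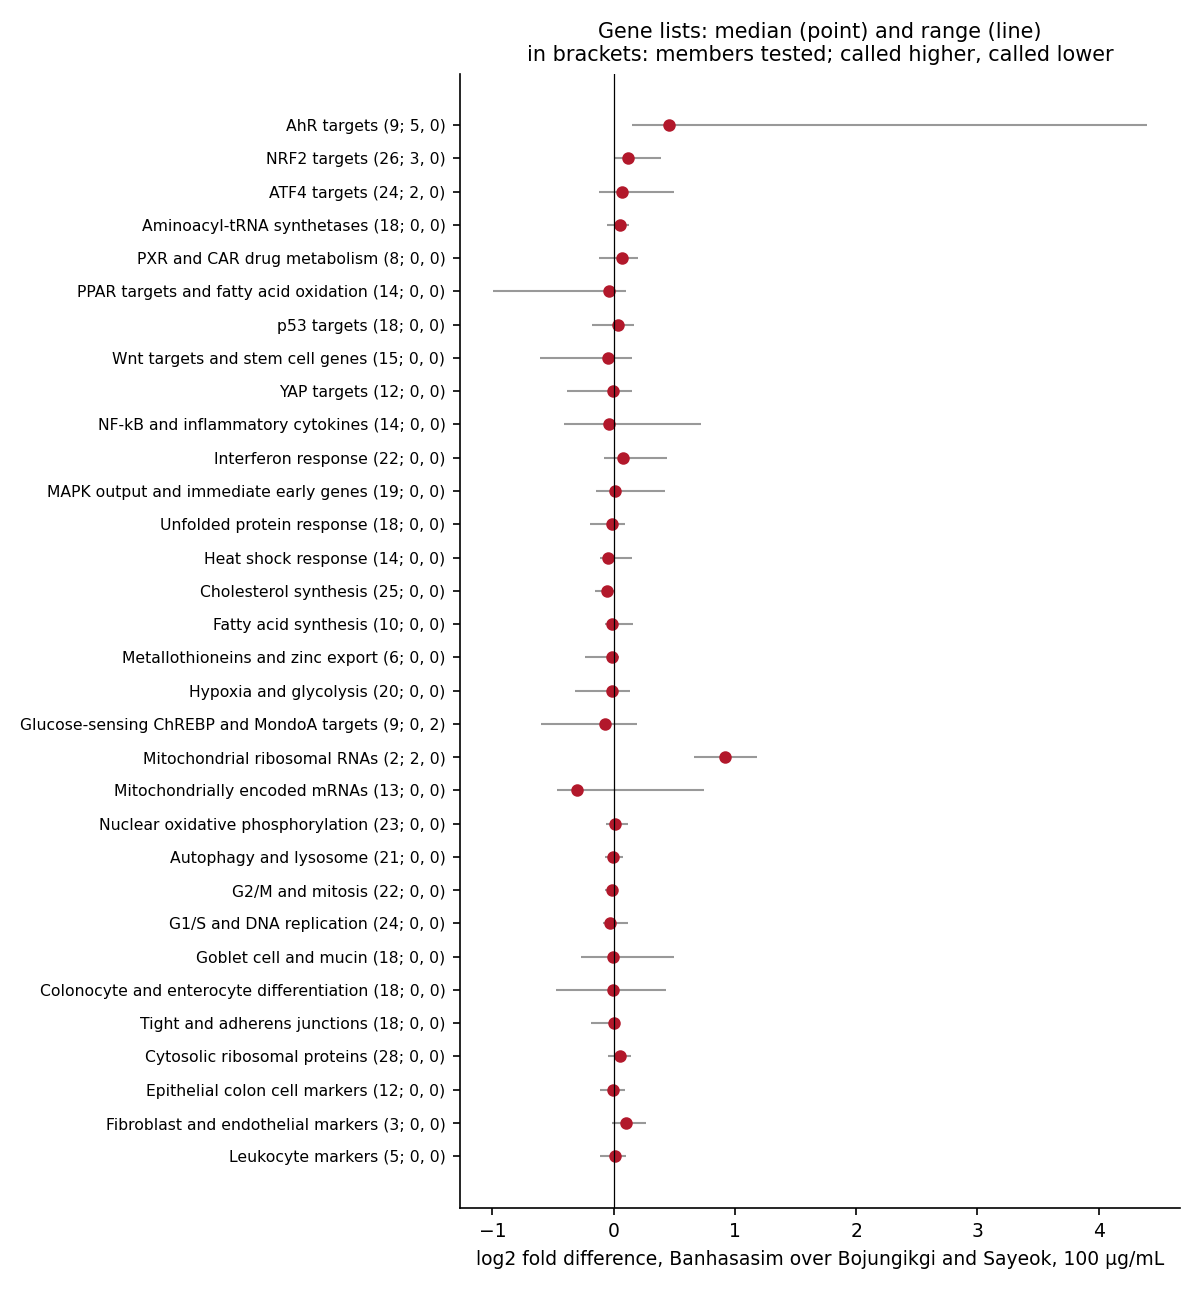
For each of the 32 gene lists, the point is the median and the line the range of the log2 fold difference of Banhasasim over Bojungikgi and Sayeok at 100 µg/mL. Brackets give the members tested, then those called higher and lower. The AhR list has 5 of 9 called and both mitochondrial ribosomal RNAs are called, while most medians sit near 0.

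The 2 other extracts were also taken singly. Against Bojungikgi alone 24 genes were called (0.128%), 23 higher (0.122%) and 1 lower (0.00532%). Against Sayeok alone 40 were called (0.213%), 35 higher (0.186%) and 5 lower (0.0266%). Without Banhasasim replicate 3 the counts were 15 against Bojungikgi and 16 against Sayeok. Against Sayeok 21 were called without Banhasasim replicate 2 and 24 without Sayeok replicate 2. These comparisons share the Banhasasim libraries. CYP1A1 differed by 4.24 ± 0.16 against Bojungikgi and by 4.56 ± 0.17 against Sayeok. CYP1B1 differed by 1.74 ± 0.05 and 1.89 ± 0.05, MT-RNR1 by 1.17 ± 0.13 and 1.19 ± 0.13, and TXNIP by -0.63 ± 0.05 and -0.57 ± 0.05, each against Bojungikgi first. MT-RNR2 was called against Sayeok (0.71 ± 0.13, adjusted p = 0.019) and not against Bojungikgi (0.61 ± 0.13, adjusted p = 0.0974). GATA2, a transcription factor best known from blood formation, had 0.26 ± 0.05 against Bojungikgi (adjusted p = 0.0111) and 0.15 ± 0.05 against Sayeok (adjusted p = 0.593). Bojungikgi against Sayeok gave 0 called genes of 18783 (0.0%) in edgeR and 0 in DESeq2, with 935 at an unadjusted p under 0.05.

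Within sample code series 14, Banhasasim was set against the single Yijung library, which is assumed to vary like the other groups. There 16 genes were called (0.0852%), 15 higher (0.0799%) and 1 lower (0.00532%). CYP1A1 was higher by 4.50 ± 0.27 (adjusted p = 5.3e-11), CYP1B1 by 1.89 ± 0.07 (adjusted p = 1.73e-15), ALDH1A3 by 1.33 ± 0.09 (adjusted p = 2.68e-10) and TIPARP by 0.84 ± 0.08 (adjusted p = 6.41e-07). TXNIP was lower by 0.69 on the log2 scale, at 36.5 CPM with Banhasasim and 58.7 CPM with Yijung (adjusted p = 1.13e-06). MT-RNR1 was higher by 1.27 ± 0.19 (adjusted p = 0.00311). MT-RNR2 (0.67 ± 0.19, adjusted p = 0.796), SLC7A11 (0.36 ± 0.10, adjusted p = 0.821) and ARRDC4 (-0.37 ± 0.12, adjusted p = 1) did not pass. For the genes named here, called or not, the values were near those of the pooled comparison. Both comparisons use the same Banhasasim libraries, and this one rests on a single Yijung library. Whether the code series contributed to the differences was not tested.

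**Figure D4:**
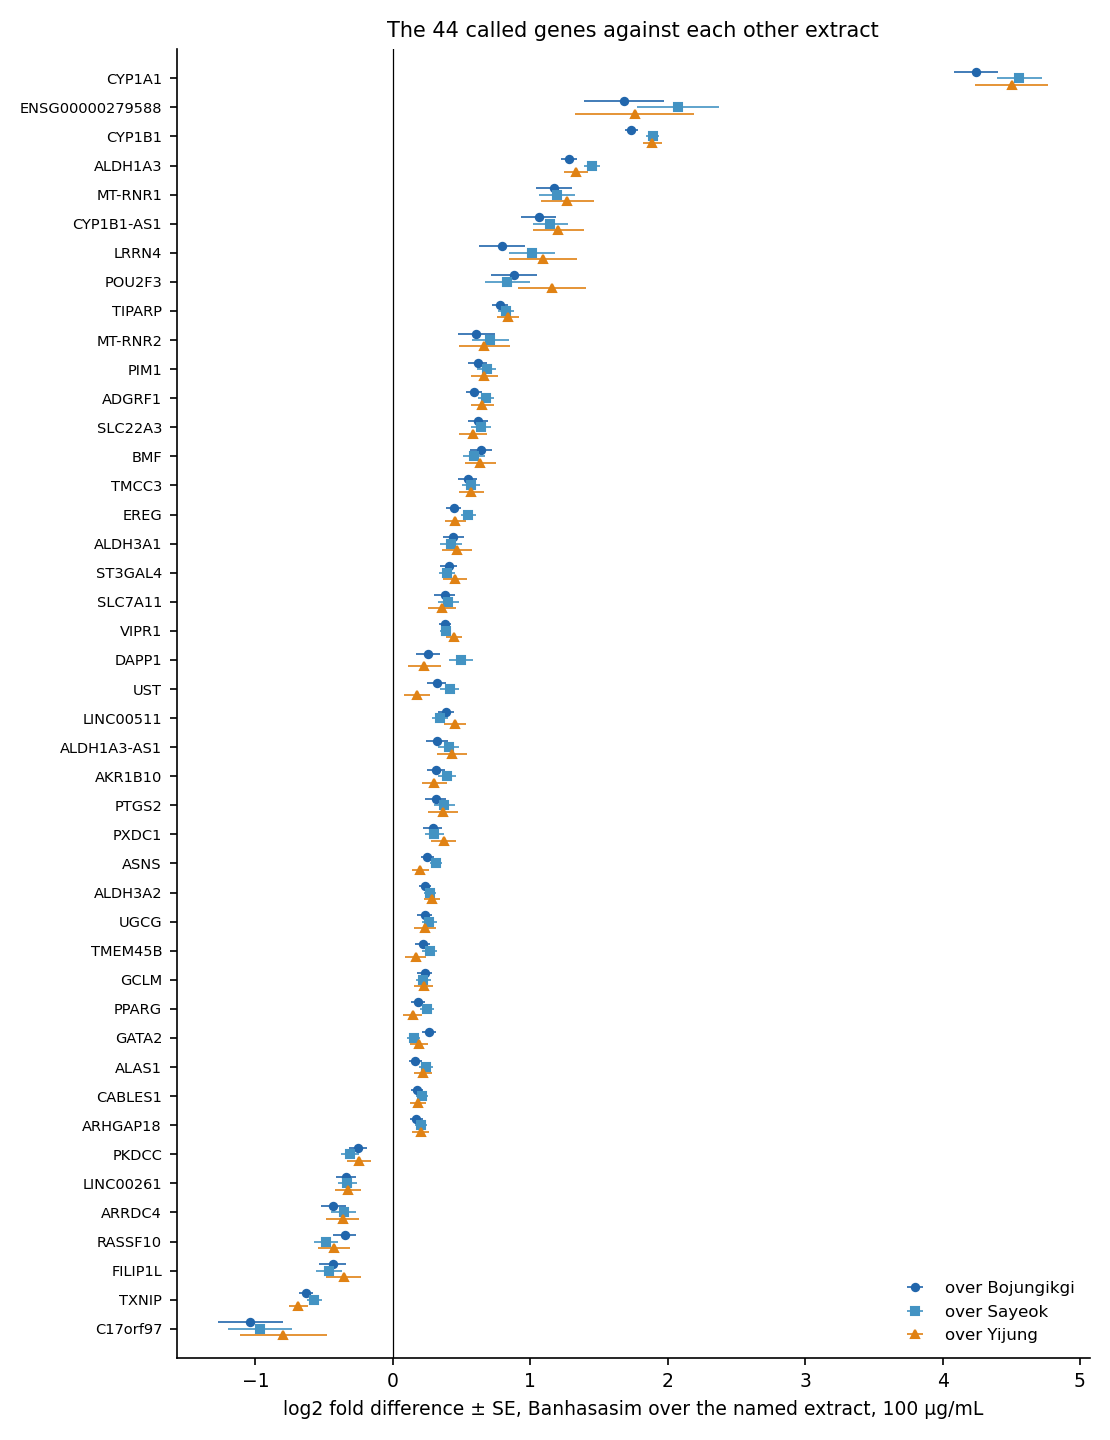
Rows are the 44 called genes, ordered by their pooled difference. Markers give the log2 fold difference of Banhasasim over Bojungikgi (circle), over Sayeok (square) and over Yijung (triangle) at 100 µg/mL, and bars are ± SE. The comparisons share the Banhasasim libraries. The 3 values of a gene lie close together for CYP1B1, TIPARP and TXNIP and further apart for POU2F3 and DAPP1.

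The same contrast at the doses below and above used other libraries (n = 2 against 6 at each dose). At 20 µg/mL 4 genes were called (0.0213%), all higher: CYP1A1 by 1.71 ± 0.22 (adjusted p = 0.000182), CYP1B1 by 0.79 ± 0.04 (adjusted p = 6.85e-12), ALDH1A3 by 0.59 ± 0.05 (adjusted p = 7.18e-07) and TIPARP by 0.44 ± 0.05 (adjusted p = 3.71e-05). CYP1A1 was at 1.39 ± 0.264 CPM with Banhasasim 20 µg/mL, against 0.407 ± 0.0822 CPM with Bojungikgi and 0.423 ± 0.114 CPM with Sayeok at that dose (SD, n = 2, 3 and 3). At 500 µg/mL 1781 genes were called (9.48%), 1023 higher (5.45%) and 758 lower (4.04%). That count was 486 without Banhasasim 500 replicate 2 and 569 with only the 3 groups in the fit. Without Banhasasim 500 replicate 3 the balance turned, with 761 higher and 913 lower. CYP1A1 was there at 94.8 ± 7.35 CPM with Banhasasim, against 2.81 ± 0.251 CPM with Bojungikgi and 1.24 ± 0.351 CPM with Sayeok. MT-RNR1 was at 31797 and 23536 CPM in the Banhasasim 500 µg/mL libraries, against 1558 ± 97.9 CPM with Bojungikgi and 1489 ± 85.3 CPM with Sayeok.

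Of the 44 genes called at 100 µg/mL, 42 had the same sign at 20 µg/mL (95.5%, against 56.3% of all genes tested) and all 44 had a smaller difference there. At 500 µg/mL all 44 had the same sign (100.0%, against 56.4% of all genes), 39 were called the same way and 29 had a larger difference. The median log2 difference of the 37 higher genes was 0.17 at 20, 0.39 at 100 and 0.66 at 500 µg/mL, and that of the 7 lower genes was -0.17, -0.42 and -0.50. The values at 100 µg/mL chose the genes, which favours large ones at that dose. At 20 and 500 µg/mL too, Banhasasim was in code series 14 and the other 2 extracts in series 15. The shared signs therefore cannot tell the extract from the code series. Some differences were no larger at the top dose: AKR1B10 stood at 0.36 ± 0.06 at 100 and 0.33 ± 0.06 at 500 µg/mL, and TMCC3 at 0.56 ± 0.06 and 0.50 ± 0.06. ASNS stood at 0.06 ± 0.04, 0.28 ± 0.04 and 1.75 ± 0.04 over the 3 doses.

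Whether the difference itself changed between 20 and 100 µg/mL was tested by an interaction term, in which a constant offset between the code series drops out. It was called for 5 genes (0.0266%), 4 with a positive (0.0213%) and 1 with a negative term (0.00532%). These were CYP1A1 at 2.69 ± 0.27 (adjusted p = 2.5e-06), CYP1B1 at 1.03 ± 0.06 (adjusted p = 9.27e-11), ALDH1A3 at 0.77 ± 0.08 (adjusted p = 2.5e-06), MT-RNR1 at 1.43 ± 0.17 (adjusted p = 0.000255) and TXNIP at -0.40 ± 0.07 (adjusted p = 0.00822). TIPARP, at 0.36 ± 0.07, did not pass (adjusted p = 0.098), nor did MT-RNR2 at 0.88 ± 0.17 (adjusted p = 0.098). MT-RNR1 was at 1163 ± 112 CPM with Banhasasim 20 µg/mL, against 1408 ± 82.2 CPM with Bojungikgi and 1350 ± 82.5 CPM with Sayeok, so that it was not higher at the low dose (-0.25 ± 0.12, adjusted p = 1). TXNIP was at -0.20 ± 0.05 there (adjusted p = 0.304).

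**Figure D5:**
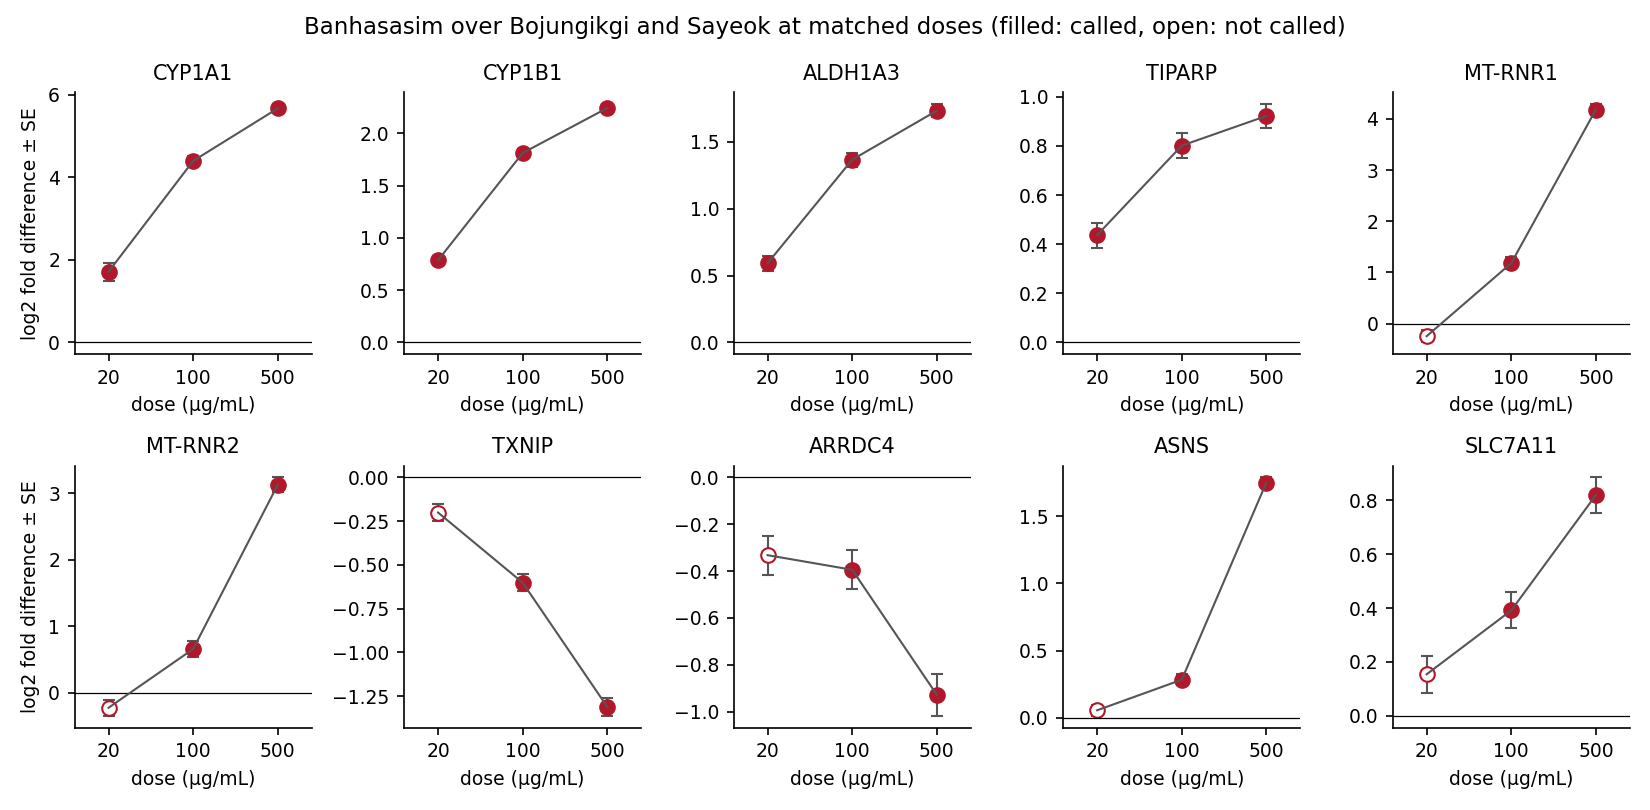
For 10 genes, points give the log2 fold difference of Banhasasim over Bojungikgi and Sayeok at 20, 100 and 500 µg/mL (doses evenly spaced), and bars are ± SE. Filled points passed an adjusted p under 0.05 and open points did not. The AhR genes in the first 4 panels are filled at all 3 doses, whereas MT-RNR1, MT-RNR2, TXNIP, ARRDC4, ASNS and SLC7A11 are filled at 100 and 500 µg/mL only.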

How the data were processed

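Expected counts of each gene, estimated by the authors with RSEM, were deposited, per the submitters' processing notes. The tools named there are RSEM 1.3.3, STAR 2.7.3a, Trim Galore 0.6.5 and FastQC 0.11.9, with GRCh38 (hg38) as build. Neither annotation release nor strand setting is given in the sources used here. Per the labels, libraries were made with a directional kit from 1 µg of RNA with an integrity number above 7 and sequenced as 100 bp paired reads. Of the 270 columns over 60675 genes, 30 were used and 240 were not used here. All values were rounded to whole numbers, which changed 25.48% of those above 0.

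From the rounded counts, genes were filtered with filterByExpr (minimum count 10) to 18783, scaled by TMM and modelled with edgeR 4.0.16 under R 4.3.3. The model had a mean for each group, took in all 30 libraries, used robust quasi-likelihood dispersions and left 17 residual degrees of freedom. The common dispersion was 0.00407, a biological coefficient of variation of 6.38%, so small differences could be called. Tests were two-sided, and p-values were adjusted by Benjamini-Hochberg over all genes tested. The SE is the absolute log2 difference divided by the square root of F. Fits were tested on counts simulated from the fitted dispersions, with independent libraries and no offset between the code series, so that test says nothing about such an offset. The vehicle label gives 0.1% DMSO and the series text 2%; the label was followed, and the DMSO content of the extract libraries is not labelled. Symbols matched 56558 gene IDs and coordinates come from GENCODE release 29.

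Genes named are the 12 higher and 12 lower (5 and 5 in other comparisons) with the largest difference among those called, at 5 CPM or more on a side, with a proper symbol and no overlap of libraries, and up to 4 members per list by smallest p with at least 1 CPM. Other genes were named after their values were seen. The comparison, lists and rule were chosen with earlier results of these data known. Alternatives were RLE scaling, DESeq2 1.42.0, no filter, a minimum count of 50, only the groups compared, a replicate block, no mitochondrial genes, and leaving out each library.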

Additional observations from a re-analysis of the deposited data

Results flagged for a closer look

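PIM1 in Bojungikgi replicate 2 (12.8 CPM), AKR1B10 in the same library (109.0 CPM), TMEM45B in Sayeok replicate 2 (61.1 CPM) and MT-RNR2 in Sayeok replicate 2 (7710.0 CPM) each stood far from the other libraries of the 6 at 100 µg/mL other than Banhasasim. These are 4 of 44 genes looked at in this way, and chance alone picks out about 1 in 20 such groups. Each of these values lay outside the Banhasasim range for its gene, as did all 6 libraries in each of the 44 called genes.

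The difference between Banhasasim and the other extracts was not the same at 100 and 20 µg/mL for 5 genes, by an interaction term in edgeR. It was larger by 2.69 on the log2 scale for CYP1A1, by 1.03 for CYP1B1, by 0.77 for ALDH1A3 and by 1.43 for MT-RNR1. For TXNIP it changed by -0.4. The interaction was tested with n = 2 against 6 libraries at each dose, and 4 of the 5 terms were positive.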

How the results depend on the processing

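Without a filter on low counts, more genes were called: 141 in the pooled comparison, 129 against Bojungikgi, 148 against Sayeok and 113 for Bojungikgi against Sayeok. There were 90 at 20 µg/mL, 81 for the change between doses, 118 against Yijung and 26 members of the lists. In the pooled comparison and against Yijung, 0 of these calls were on genes that the filter had removed. In each of the other comparisons just given, 1 was. The remaining calls were on genes that the main fit had also tested. The cause was not tested. DESeq2 called 38 against Bojungikgi, 7 at 20 µg/mL and 9 for the change between doses. With only the groups compared in the fit, 569 were called at 500 µg/mL, 9 for the change between doses and 32 against Yijung. Leaving out 1 library gave 16 to 39 calls in the pooled comparison, 15 to 22 against Bojungikgi, 16 to 30 against Sayeok (16 without Banhasasim replicate 3, 21 without replicate 2, 24 without Sayeok replicate 2), 4 to 6 at 20 µg/mL, 486 (without Banhasasim 500 replicate 2) to 1870 at 500 µg/mL, 4 to 6 for the change between doses and 11 to 13 against Yijung. The members of lists called, 13 in the main comparison, were 8 without Banhasasim replicate 2 and 7 without replicate 3; with fewer samples, fewer calls can pass.

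Of the 18 genes named in the pooled comparison, 11 were called in the same direction under all of their alternatives, 7 lost the call at least once and 0 changed sign. With the replicate number as a block, 40 genes were called in the pooled comparison and 16 against Yijung. Over all genes tested, deviations from the group means were hardly correlated between libraries with the same number (correlations of -0.091 to 0.009). With 2 or 3 libraries in a group, this cannot tell whether the numbers pair the samples. ARRDC4 lost its call under the block (adjusted p = 0.0666).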
